A study of Mus musculus with 12 samples.

Results

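Interferon-stimulated genes are switched on when a cell senses interferon, and 10 of them are described here in myeloid cells sorted from mouse brains that had been taken apart in 4 ways. The 10 genes are Ifit1, Ifit2, Ifit3, Ifit3b, Isg15, Irf7, Oasl2, Usp18, Rtp4 and Ifitm3. They were picked by gene symbol from the 31053 genes that the libraries list, and all 10 were found. The study asked how dissociation alters microglia, the resident macrophages of the brain, and for these genes the question was whether their level depends on the way the cells were prepared.

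Whole brains of 12 male C57BL/6J mice at postnatal day 90, 3 per group, were either homogenized cold with a glass Dounce pestle (DNC) or digested warm with enzymes (ENZ). Inhibitors were added (INHIB) or left out (NONE), namely actinomycin D and triptolide, which block transcription, from perfusion onwards and anisomycin, which blocks translation, from dissection onwards, so the groups are DNC-NONE and DNC-INHIB for Dounce and ENZ-NONE and ENZ-INHIB for digestion. All 4 groups shared strain, sex, age, perfusion, dissection on ice and the sort of live CD45+/CD11b+ cells, and differed in dissociation and inhibitors, and no group was given interferon or a virus. Each library held the cells of 1 mouse, and the labels placed 6 libraries in batch 1 and 6 in batch 2, with every group in both. Batch 1 held 4 NONE and 2 INHIB libraries and batch 2 held 2 and 4, so inhibitors and batch were not balanced.

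Type I interferons bind a receptor on the cell surface, whose kinases Jak1 and Tyk2 activate transcription factors. These bind an element with repeated GAAA sequences in the promoters of responding genes. Many of the products act against viruses, while others amplify the response or end it, and small numbers of microglia in this state are known from healthy, ageing and diseased brains.

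Positions are given in GRCm38, the build to which the deposited counts refer. The 4 Ifit genes lay side by side on the plus strand of chromosome 19, with Ifit2 at chr19:34550694-34576419, Ifit3 at chr19:34583531-34588731, Ifit3b at chr19:34607970-34613401 and Ifit1 at chr19:34640871-34650009. Irf7 (chr7:141262706-141266481) and Ifitm3 (chr7:141009586-141010770) were both on the minus strand of chromosome 7. Isg15 was at chr4:156199424-156200818 on the minus strand, and Oasl2 (chr5:114896936-114912234), Usp18 (chr6:121245906-121270917) and Rtp4 (chr16:23520291-23614222) were on plus strands. All 10 are protein-coding.

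Promoter sequences are shown for the members whose promoters carried the GAAA repeat, to let the element be seen, and for Ifit2, which turns out to differ most between preparations. The motif searched was GAAA, any 2 bases and GAAA again, or its reverse complement TTTC, any 2 bases and TTTC, on either strand and with overlaps allowed, in windows from 250 bases before to 50 bases after each RefSeq start site (GRCm38.p6). Matches are in capitals, and each sequence is written 5′ to 3′ on the strand of its gene, the 200 bases before the start site except for Ifitm3, whose matches lie just after it.
Isg15, chr4:156200819-156201018, minus strand: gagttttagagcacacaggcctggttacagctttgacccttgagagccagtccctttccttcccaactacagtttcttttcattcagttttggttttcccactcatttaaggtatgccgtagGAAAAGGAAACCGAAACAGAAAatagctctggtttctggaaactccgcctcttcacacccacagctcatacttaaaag
Ifit1, chr19:34640689-34640888, plus strand: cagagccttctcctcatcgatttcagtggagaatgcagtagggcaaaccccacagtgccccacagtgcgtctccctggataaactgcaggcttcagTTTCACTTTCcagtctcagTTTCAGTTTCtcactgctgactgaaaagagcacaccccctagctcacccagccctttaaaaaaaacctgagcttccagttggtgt
Ifit3, chr19:34583329-34583528, plus strand: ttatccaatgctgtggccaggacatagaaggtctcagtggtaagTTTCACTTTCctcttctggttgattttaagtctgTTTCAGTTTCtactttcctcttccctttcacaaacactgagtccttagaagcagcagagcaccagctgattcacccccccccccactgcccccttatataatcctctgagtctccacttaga
Ifit3b, chr19:34607757-34607956, plus strand: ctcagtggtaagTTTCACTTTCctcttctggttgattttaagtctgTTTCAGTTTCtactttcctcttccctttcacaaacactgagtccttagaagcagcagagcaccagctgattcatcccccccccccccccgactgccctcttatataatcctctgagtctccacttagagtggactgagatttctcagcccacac
Ifit2, chr19:34550494-34550693, plus strand: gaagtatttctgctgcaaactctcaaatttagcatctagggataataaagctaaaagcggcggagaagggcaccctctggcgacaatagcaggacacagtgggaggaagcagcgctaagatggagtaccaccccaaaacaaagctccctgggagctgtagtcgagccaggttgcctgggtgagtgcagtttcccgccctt
Ifitm3, chr7:141010716-141010742, minus strand: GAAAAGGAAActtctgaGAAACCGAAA

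Of the 8 members with a window, 5 held the motif, and each of these 5 held at least 2 copies. In Isg15 the 3 matches began 78, 72 and 66 bases before the start site and overlapped one another. The matches of Ifit1 began 104 and 85 bases before the start, those of Ifit3 156 and 122 bases before it and those of Ifit3b 188 and 154 bases before it. The windows of Ifit3 and Ifit3b were 75% identical over 268 bases once shifted by 32 bases. No match was found in the windows of Ifit2 (2 start sites), Irf7 or Oasl2, and no window was given for Usp18 or Rtp4. Over all 32851 promoter windows 3.44% held a match and 0.225% held 2 or more, and among the 12 dissociation-response genes with a window 0 held one. A match describes letters in this window and does not show that a factor binds there.

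The libraries are 3′ counts in droplets, in which each unique molecular identifier (UMI) stands for 1 captured molecule. After filters 18827 of 28426 deposited cells were kept, 854 to 2185 per library, with 1061021 to 3233159 UMIs per library and a median of 1153 to 1572 UMIs per cell. Shares of cells were taken after every cell was thinned to 1000 UMIs, so that depth was equal, and intervals are exact 95% binomial intervals that cover counting error only. Microglial markers made up 33273 to 38412 CPM, the usual measure in which UMIs are scaled to a common library total, and were found in at least 99.2% of cells of each library. In contrast, 231 cells carried UMIs of at least 3 of 12 genes of border macrophages and monocytes (0.441% to 2.93% of a library, highest in DNC-NONE replicate 2) and 13 carried at least 2 of 3 neutrophil genes. The neutrophil genes summed to 2085 CPM in DNC-NONE replicate 3, 750.2 CPM in DNC-NONE replicate 2 and at most 261.8 CPM in the others. The kept barcodes of different libraries coincided 236 times, between 0 and 12 for each pair of libraries.

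All 10 genes were found in every preparation, at low levels. The summed level of the 10 genes was 397.4, 284.6 and 253.1 CPM in the 3 DNC-NONE libraries, 176.0, 194.2 and 303.7 CPM in DNC-INHIB, 133.6, 165.4 and 264.9 CPM in ENZ-NONE, and 219.2, 148.5 and 124.3 CPM in ENZ-INHIB. DNC-NONE lay above ENZ-INHIB without overlap in this sum, and every other pair of groups overlapped. The means of the groups were 312 ± 75.9, 225 ± 69.1, 188 ± 68.5 and 164 ± 49.3 CPM in the order of that sentence (SD, n = 3 each). Within batch 1 the mean of the DNC libraries was 286 CPM against 173 CPM in the ENZ libraries, and within batch 2 it was 250.3 against 179 CPM. Much of this sum was Ifitm3, and without it the other 9 genes summed to 147 ± 30.6 CPM in DNC libraries and 104 ± 23.1 CPM in ENZ libraries (SD, n = 6 each). In bulk sums such as these, fewer cells with the genes on and less RNA per such cell cannot be told apart.

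**Figure D1:**
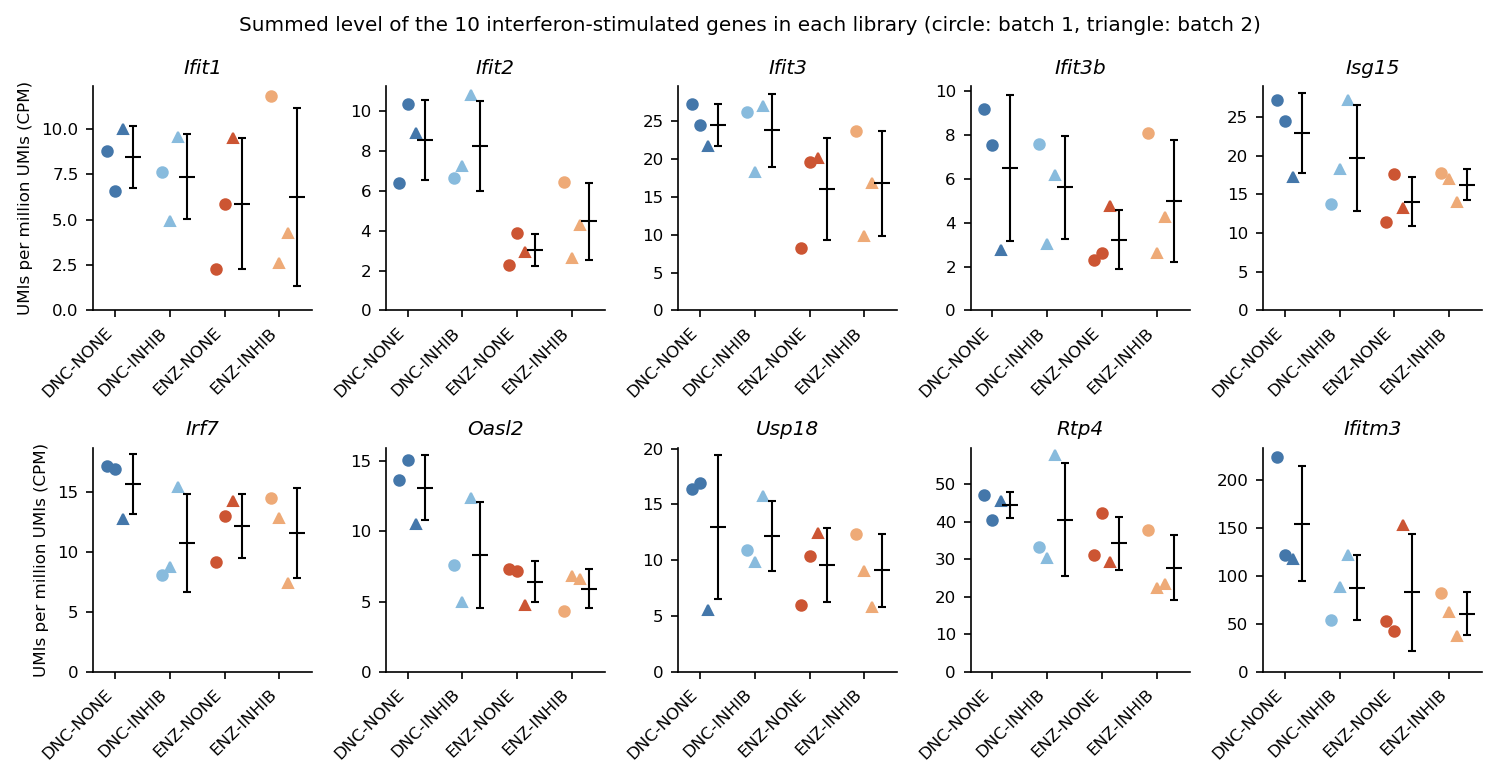
Summed level of each of the 10 interferon-stimulated genes in CPM (vertical axes, each from 0) in the 12 libraries, by preparation, with circles for batch 1, triangles for batch 2 and black bars for the group mean ± SD (n = 3). The groups overlap for most genes, and the ENZ libraries lie lowest for Ifit2, which ran from 2.30 to 6.46 CPM in ENZ and from 6.40 to 10.8 CPM in DNC.

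Among the antiviral effectors, Ifit2, whose product binds RNA and hampers translation of viral messages, was lower after digestion. Its level was 6.40, 10.4 and 8.88 CPM in DNC-NONE, 6.66, 7.22 and 10.8 CPM in DNC-INHIB, 2.30, 3.91 and 2.93 CPM in ENZ-NONE, and 6.46, 2.64 and 4.29 CPM in ENZ-INHIB. These levels rest on 11 to 35 UMIs in each Dounce library and 5 to 12 in each digested one. The ranges of ENZ and DNC met at 1 library, ENZ-INHIB replicate 1 at 6.46 CPM, just above the lowest DNC library at 6.40 CPM.

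Averaged over the inhibitors, Ifit2 was lower in ENZ than in DNC libraries by a log2 fold change of -1.18 (SE 0.27, 95% interval -1.73 to -0.63, adjusted p = 0.0174, edgeR quasi-likelihood test with Benjamini-Hochberg adjustment over 9882 genes, n = 6 against 6). Ifit2 was the 1 member of 10 called, where a call needed an adjusted p under 0.05 and a log2 fold change beyond 0.58 in size, against 0.87% of all genes tested in this comparison. All 10 members passed the filter on low counts. The mean was 4.22 against 7.81 CPM within batch 1 and 3.29 against 8.98 CPM within batch 2, with no overlap in batch 2. The call was lost with DESeq2 (adjusted p = 0.0528) and when macrophage-marker cells were left out (log2 fold change -0.99, adjusted p = 0.0773). It was also lost without DNC-INHIB replicate 6, ENZ-NONE replicate 4, ENZ-INHIB replicate 2 or ENZ-INHIB replicate 3, with adjusted p between 0.0506 and 0.0896.

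The other Ifit genes lay lower after digestion without passing the test. Ifit3, which partners Ifit2 and binds signalling adaptors, was at 27.2, 24.5 and 21.6 CPM with Dounce alone and at 26.2, 18.2 and 26.9 CPM with Dounce and inhibitors. In the digested libraries it was at 8.26, 19.5 and 20.1 CPM without inhibitors and at 23.7, 9.80 and 16.8 CPM with them. Digested libraries were spread more widely and overlapped the Dounce libraries from above 18.2 CPM (log2 fold change -0.56, SE 0.22, adjusted p = 0.283 by edgeR). Ifit1, which recognizes foreign RNA caps, ran from 2.30 to 11.9 CPM in ENZ and from 4.94 to 9.99 CPM in DNC libraries (log2 fold change -0.41, SE 0.35, adjusted p = 0.700 by edgeR). Ifit3b, a close copy of Ifit3, gave the same fold change of -0.56 with a wider error (SE 0.33, adjusted p = 0.515 by edgeR). These 2 genes share 32.3% of the 98-base windows of Ifit3 and 28.0% of those of Ifit3b, and reads from shared windows cannot be told apart. In the last 500 bases, where 3′ reads fall, only 4.71% and 0% were shared. How far sharing affects their separate counts was not tested.

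Isg15, a ubiquitin-like protein attached to other proteins, followed the same direction. Its level was 27.2, 24.5 and 17.2 CPM in DNC-NONE, 13.8, 18.2 and 27.2 CPM in DNC-INHIB, 11.5, 17.6 and 13.2 CPM in ENZ-NONE, and 17.8, 17.0 and 14 CPM in ENZ-INHIB. No digested library exceeded 17.8 CPM, whereas 4 of the 6 Dounce libraries did (log2 fold change -0.51, SE 0.17, unadjusted p = 0.00556, adjusted p = 0.148 by edgeR). Usp18 removes Isg15 from its targets and damps the receptor, and ranged from 5.55 to 17.0 CPM in DNC and from 5.85 to 12.5 CPM in ENZ libraries (log2 fold change -0.41, SE 0.26, adjusted p = 0.553 by edgeR).

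Irf7, the transcription factor that amplifies type I interferon production, differed least. It was at 17.2, 17.0 and 12.8 CPM in DNC-NONE, 8.09, 8.74 and 15.5 CPM in DNC-INHIB, 9.18, 13 and 14.3 CPM in ENZ-NONE, and 14.5, 12.8 and 7.41 CPM in ENZ-INHIB. The groups overlapped throughout (log2 fold change -0.13, SE 0.20, adjusted p = 0.851 by edgeR). Its sign turned to 0.04 without macrophage-marker cells. Irf7 overlaps exons of Phrf1 on the opposite strand, and Usp18 those of a long noncoding RNA, and whether the counting kept strands apart is not given in the sources used here.

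Oasl2, related to the oligoadenylate synthetases that sense double-stranded RNA, was at 13.6, 15.1 and 10.5 CPM in DNC-NONE, 7.61, 4.94 and 12.4 CPM in DNC-INHIB, 7.35, 7.16 and 4.76 CPM in ENZ-NONE, and 4.31, 6.78 and 6.63 CPM in ENZ-INHIB. The 3 DNC-NONE libraries were above all 6 digested ones, and DNC-INHIB spanned both (log2 fold change -0.74, SE 0.23, unadjusted p = 0.00387, adjusted p = 0.120 by edgeR). Rtp4, known as a chaperone of membrane receptors and an antiviral factor, was at 47.2, 40.5 and 45.5 CPM in DNC-NONE, 33.3, 30.4 and 57.8 CPM in DNC-INHIB, 31.2, 42.3 and 29.3 CPM in ENZ-NONE, and 37.7, 22.2 and 23.4 CPM in ENZ-INHIB. The highest library was DNC-INHIB replicate 6 and the 2 lowest were digested with inhibitors, with overlap between the methods (log2 fold change -0.49, SE 0.18, unadjusted p = 0.0180, adjusted p = 0.256 by edgeR).

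Ifitm3, a membrane protein that blocks virus entry, was the most variable member. It was at 224.1, 121.6 and 118.2 CPM in DNC-NONE, 54.2, 88.6 and 121.6 CPM in DNC-INHIB, 53.3, 43.0 and 153.5 CPM in ENZ-NONE, and 82.4, 62.9 and 37.4 CPM in ENZ-INHIB. DNC-NONE replicate 1 stood at the top and ENZ-NONE replicate 6 was above every other digested library, while the groups overlapped (log2 fold change -0.69, SE 0.40, adjusted p = 0.543 by edgeR). Macrophage-marker cells contributed to it unequally, since 63.2% of them carried Ifitm3 UMIs against 2.55% of cells with neither macrophage nor neutrophil markers. They held 38.9% of its thinned UMIs in all, 52.9% in DNC-NONE, 27.8% in DNC-INHIB, 43.6% in ENZ-NONE and 23.2% in ENZ-INHIB. For the other 9 members, 2.60% to 20.3% of macrophage-marker cells carried a UMI, against 0.264% to 2.78% of cells with neither kind of marker. Each of the 9 was more frequent in the macrophage-marker cells. In DNC-NONE these cells held 31.4% of the thinned Ifit2 UMIs and 31.1% of those of Oasl2. For Ifit2 it was 0% in DNC-INHIB, 7.69% in ENZ-NONE and 4.76% in ENZ-INHIB, and for Oasl2 14%, 23.3% and 16.1%.

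Across the members, 10 of 10 fold changes for digestion lay below 0, with a median of -0.54 and 5 unadjusted p values under 0.05, beside a median of 0.00, 4821 of 9882 below 0 and 1253 unadjusted p values under 0.05 over all genes. Without macrophage- and neutrophil-marker cells, a choice made after the data were seen, 9 of 10 lay below 0, the median was -0.45 and 0 were called, with 4 unadjusted p values under 0.05 by edgeR. DESeq2 called 0 of 10 on all kept cells. The 12 macrophage and monocyte genes summed to 343.0 to 458.0 CPM in DNC-NONE, 108.9 to 215.9 CPM in DNC-INHIB, 101.9 to 304.0 CPM in ENZ-NONE and 74.4 to 202.0 CPM in ENZ-INHIB, and the part that RNA of such cells outside the marker limit has in the members' differences was not tested.

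**Figure D2:**
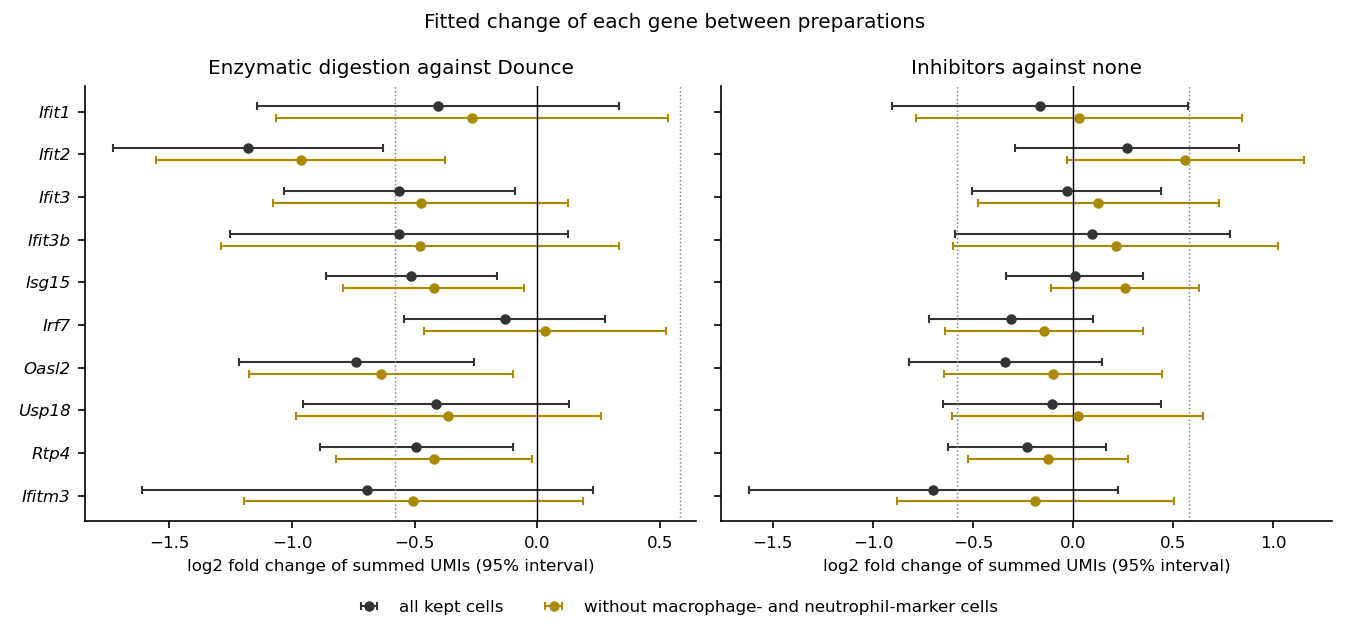
Log2 fold change of each member with its 95% interval from edgeR for enzymatic digestion against Dounce and for inhibitors against none, on all kept cells (black) and without macrophage- and neutrophil-marker cells (ochre), with dotted lines at the fold limit of 0.58 in either direction. All 10 black points lie below 0 for digestion, Ifit2 lowest at -1.18, and for inhibitors they lie on both sides of 0 between -0.70 and 0.27.

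The comparison of ENZ-NONE with DNC-NONE asked directly whether warm digestion without inhibitors raised these genes. It called 0 of 10 members by edgeR, against 0.465% of all genes, with 3 unadjusted p values under 0.05, all for lower levels after digestion, and 0 calls by DESeq2. The 3 were Ifit2 (log2 fold change -1.40, SE 0.41, adjusted p = 0.164), Oasl2 (-0.99, SE 0.33, adjusted p = 0.307) and Isg15 (-0.70, SE 0.25, adjusted p = 0.369). The median of the 10 was -0.64 and their range -1.40 to -0.31. Over all genes the median was 0.00, and 820 of 9882 unadjusted p values by edgeR were under 0.05. The highest upper bound of the 10 intervals was 0.61, for Ifit1.

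In the same libraries the genes of the dissociation response, immediate-early, heat-shock and chemokine genes that warm digestion is known to raise, had higher fitted levels after digestion. Fos averaged 852 ± 780 CPM in ENZ-NONE against 13.6 ± 20.4 CPM in DNC-NONE (SD, n = 3 each), a difference that edgeR did not call. Of 16 such genes, 7 passed the test as higher after digestion and 0 as lower, with a median log2 fold change of 3.00 and 14 calls by DESeq2. The 7 were Hspa1a (7.63, adjusted p = 0.00197), Hspa1b (6.62, 2.19e-06), Dusp1 (6.30, 0.0110), Egr1 (3.93, 0.0476), Ccl3 (3.17, 0.0381), Jund (2.45, 0.00485) and Nfkbid (1.90, 0.00537), all by edgeR. This list was known from earlier results of these data and serves only as a measure taken in the same libraries.

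The remaining genes of the interferon pathway did not pass either. Of 19 interferon ligand genes 18 had 0 UMIs among the 26846559 of the 12 libraries and Ifng had 1, so none could be tested. Receptors and kinases (8 tested), transcription factors (8), nucleic acid sensors (10), feedback inhibitors (7), further antiviral effectors (32), interferon-gamma GTPases and chemokines (10) and antigen presentation genes (9) had 0 calls by edgeR and by DESeq2 in every comparison between preparations. Over all genes edgeR called 0% to 0.87% in these comparisons, so lists of this size would rarely hold a call. The most unadjusted p values under 0.05 for a list were 7 of the 32 antiviral effectors in DNC-NONE against DNC-INHIB (5 higher and 2 lower), beside 436 of 9882 over all genes. For the 32 further antiviral effectors the median for digestion averaged over inhibitors was -0.15, with 24 below 0 and 4 unadjusted p values under 0.05, all lower, and 0 calls by DESeq2. Over all genes 1253 of 9882 had an unadjusted p under 0.05 in that comparison, a similar share.

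The inhibitors did not detectably change the members. Averaged over both methods, INHIB minus NONE gave 0 calls of 10 by edgeR (0.0708% of all genes), 0 unadjusted p values under 0.05 and 0 calls by DESeq2. Fold changes ran from -0.70 for Ifitm3 (SE 0.40, adjusted p = 0.850) to 0.27 for Ifit2 (SE 0.27, adjusted p = 0.913), with a median of -0.14. The 95% intervals were -0.34 to 0.35 for Isg15 and -0.51 to 0.44 for Ifit3, the narrowest of the Ifit genes. Without macrophage- and neutrophil-marker cells the median was 0.03. The main fit had no batch term, although INHIB and NONE libraries were spread unevenly over the batches. With batch as a covariate 0 members were called as well. Fos in comparison averaged 2.77 ± 2.07 CPM in ENZ-INHIB and 2.08 ± 1.24 CPM in DNC-INHIB (SD, n = 3 each).

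Within digestion, ENZ-NONE against ENZ-INHIB again gave 0 calls of 10 (0.293% of all genes), 0 unadjusted p values under 0.05 and 0 calls by DESeq2, with a median of 0.10 by edgeR. The 16 dissociation-response genes gave 11 calls in this comparison, all higher without inhibitors, with a median of 3.61 and 15 calls by DESeq2. The largest were Fos (8.34, adjusted p = 0.0343), Hspa1a (7.08, 0.00209), Dusp1 (6.55, 0.0147), Hspa1b (5.89, 1.69e-06), Egr1 (5.65, 0.0219), Ccl3 (4.17, 0.0187), Jun (3.83, 0.0316) and Zfp36 (3.40, 0.0340) by edgeR. Averaged over inhibitors, digestion gave 3 calls of the 16, Hspa1b (3.32, adjusted p = 0.0198), Jund (1.25, 0.0138) and Nfkbid (1.22, 0.0122), and over methods the inhibitors gave 1, Jund (-1.59, 0.0321), by edgeR, where DESeq2 called 10 and 12.

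With inhibitors in both preparations, ENZ-INHIB against DNC-INHIB gave 0 member calls by edgeR (0.202% of all genes) and by DESeq2, with 2 unadjusted p values under 0.05, for Ifit2 (-0.96, SE 0.35, adjusted p = 0.367) and Rtp4 (-0.61, SE 0.25, adjusted p = 0.539). Over all genes, 835 of 9882 unadjusted p values by edgeR were under 0.05 in this comparison and the median was 0.00. The median of the members was -0.48, beside -0.64 without inhibitors. Whether the 2 differ was asked by the interaction of digestion and inhibitors, which gave 0 calls (0.0607% of all genes), 0 unadjusted p values under 0.05 and 0 calls by DESeq2, with a median SE of 0.49. Within Dounce, DNC-NONE against DNC-INHIB gave 0 calls (0% of all genes), 0 unadjusted p values under 0.05 and 0 by DESeq2. Its median was 0.20 on all kept cells and -0.14 without macrophage- and neutrophil-marker cells. In the interaction, 0 of the 16 dissociation-response genes were called by edgeR, with 14 unadjusted p values under 0.05 and 9 calls by DESeq2.

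Because members are rare in single cells, the share of cells with a UMI was described next. Over all cells, Ifitm3 was found in 3.34%, Rtp4 in 3.00%, Isg15 in 1.48%, Ifit3 in 1.08%, Irf7 in 0.967%, Usp18 in 0.924%, Oasl2 in 0.706%, Ifit1 in 0.510%, Ifit2 in 0.436% and Ifit3b in 0.292%. These shares also depend on how well each transcript is captured, so the order is not one of expression. No cell class that should lack these genes was large enough to give a share from free RNA, so the share in cells with few other members, given with the co-detection, is the nearest measure.

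Ifit3 was tested as the single representative of the shares. The share with an Ifit3 UMI was 1.2%, 1.17% and 1.65% with Dounce alone (DNC-NONE), 1.30%, 1.13% and 1.19% in DNC-INHIB, 0.510%, 1.25% and 0.915% in ENZ-NONE, and 1.25%, 0.597% and 1.01% in ENZ-INHIB. These are 8 to 26 positive cells per library. In this thinning the lowest Dounce library exceeded 4 of the 6 digested ones. Averaged over every possible thinning, the highest share of all libraries was in a digested one, ENZ-NONE replicate 5 at 1.59%. ENZ-INHIB replicate 1 was then at 1.44%, ENZ-INHIB replicate 3 at 1.046% and the lowest Dounce library, DNC-NONE replicate 2, at 1.041%.

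The mean was 0.922 ± 0.316% in ENZ and 1.27 ± 0.193% in DNC libraries (SD, n = 6 each), a difference of -0.349 percentage points (exact permutation test over all assignments of libraries, two-sided, p = 0.0455, adjusted over the 2 share comparisons 0.0909). Within batches the difference was -0.217 points in batch 1 and -0.481 in batch 2 (exact permutation within batch, p = 0.0450). Without thinning it was -0.189 points (exact permutation p = 0.383), without macrophage-marker cells -0.245 points (p = 0.130), and averaged over every possible thinning -0.203 points (p = 0.281), so the p depended on the single random thinning that was drawn and on the cells kept. For INHIB minus NONE the difference was -0.0373 points (exact permutation p = 0.872), being 0.241 in batch 1 and -0.301 in batch 2.

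UMIs of different members fell in the same cells in all 4 preparations. Of 18827 cells 17292 held no member, 1141 held 1, 201 held 2 and 193 held at least 3, and 4 cells held all 10. For the 45 pairs of members, the cells with both outnumbered those expected from independent shares in 45 of 45 pairs in each group. Summed over pairs the excess was 15-fold in DNC-NONE, 15.4-fold in DNC-INHIB, 13.4-fold in ENZ-NONE and 16-fold in ENZ-INHIB. It was 15-fold over all libraries, with 2008 co-detections against 134 expected, and 19.5-fold without Ifitm3. The highest pair was Ifit1 and Ifit3b at 102-fold and the lowest Rtp4 and Ifitm3 at 6.26-fold. Pairs share genes and cells, so these ratios are a description.

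**Figure D3:**
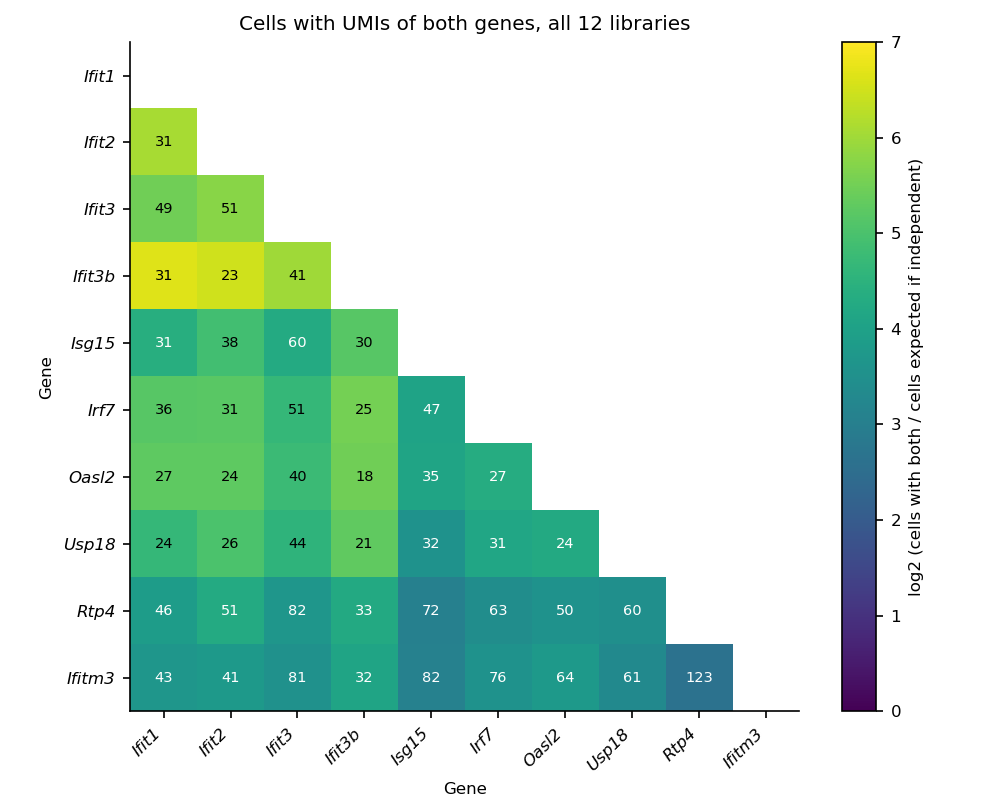
For each pair of members over all 12 libraries, the number of cells with UMIs of both genes (printed) and, as colour, the log2 of that number over the number expected from independent shares. Every square is above 0, the Ifit genes form the brightest corner, up to 102-fold for Ifit1 and Ifit3b with 31 cells, and Rtp4 with Ifitm3 is lowest at 6.26-fold with 123 cells.

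The same was seen when each member was read in cells chosen by the other 9 alone. Ifit3 was found in 80 of 160 cells (interval 42.0 to 58%) that held at least 3 of the other members, and in 0.664% of the remaining cells. Ifit3b was found in 22.8% against 0.0644%, Ifit2 in 28.7% against 0.161%, Ifit1 in 28.4% against 0.236%, and Isg15 in 38.9% against 1.15%. Ifitm3 (55.4% against 2.95%) and Rtp4 (52.4% against 2.62%) were common in such cells but also present outside them. The share was higher in chosen cells in 12 of 12 libraries for 8 members, and in 11 of 12 for Ifit3b and Usp18. Of the thinned UMIs, 84.0% of Ifit3b and 72.9% of Ifit2 but 15.8% of Ifitm3 and 17.4% of Rtp4 lay in the chosen cells.

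Cells with at least 3 of the 10 members are called interferon-high below, which is a range of a count and not a cell type, with 201 cells just under the limit and 89 just at it. There were 193 (50 in DNC-NONE, 61 in DNC-INHIB, 42 in ENZ-NONE and 40 in ENZ-INHIB). Their share was 1.14%, 1.29% and 1.29% in the DNC-NONE libraries, 0.843%, 0.820% and 1.46% in DNC-INHIB, 0.764%, 1.16% and 0.973% in ENZ-NONE, and 1.10%, 0.597% and 0.945% in ENZ-INHIB. All 4 preparations held such cells in every library, and the groups overlapped except that the lowest DNC-NONE library at 1.14% was above ENZ-INHIB, whose highest was 1.10%.

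The group means were 1.24 ± 0.0848%, 1.04 ± 0.366%, 0.967 ± 0.199% and 0.882 ± 0.259% (SD, n = 3 each, order as above). Macrophage-marker cells made up 32%, 3.28%, 21.4% and 12.5% of the interferon-high cells in the 4 groups. Without them the means were 0.867%, 1.02%, 0.773% and 0.776%, so that DNC-NONE no longer had the highest. The share of macrophage-marker cells that were interferon-high was 13.9% (interval 9.67 to 19.0%) against 0.866% of the other cells.

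An interferon-high cell held 5.60 to 11.1 member UMIs on average in each library after thinning, and any other cell 0.0642 to 0.195. Between 28.5% and 46.1% of all member UMIs lay in the interferon-high cells of a library. The median number of UMIs before thinning was 1175 to 1884 in the interferon-high cells of a library and 1151 to 1570 in its other cells.

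**Figure D4:**
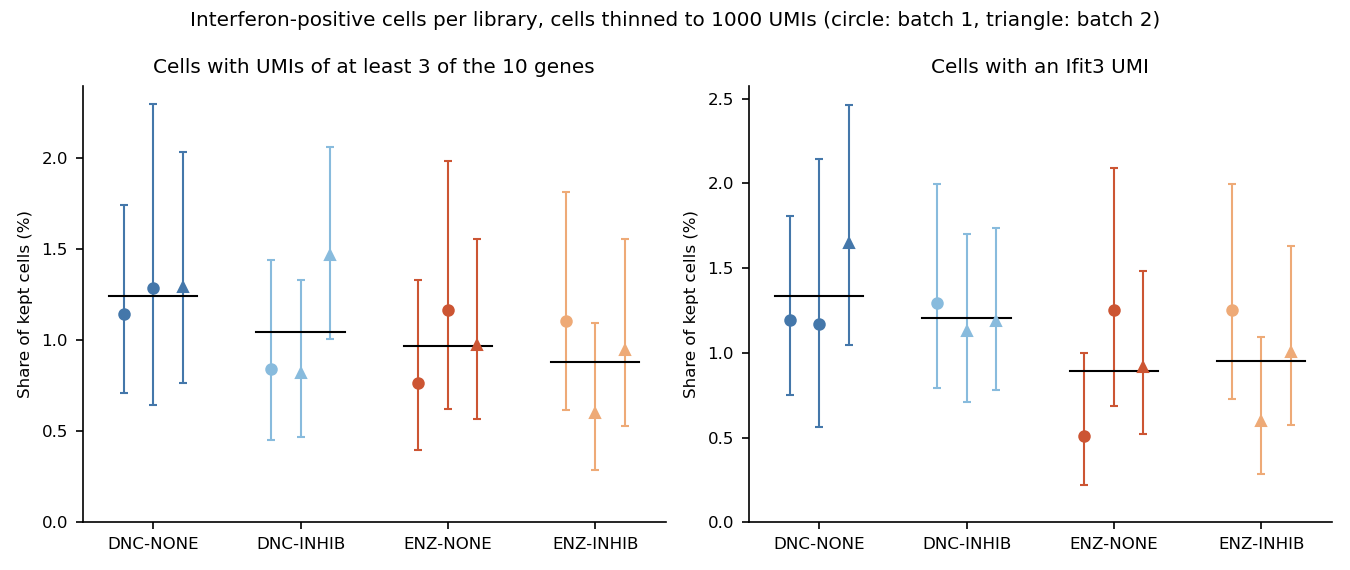
Share of kept cells, in percent, with UMIs of at least 3 of the 10 members and with an Ifit3 UMI, after thinning to 1000 UMIs per cell, in the 12 libraries by preparation, with circles for batch 1, triangles for batch 2, exact 95% intervals and black lines for group means. The intervals overlap widely, with interferon-high means of 1.24%, 1.04%, 0.967% and 0.882% and Ifit3 means of 1.34%, 1.2%, 0.892% and 0.952% from the leftmost to the rightmost preparation.

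The dissociation response and the members were then read in the same cells. In ENZ-NONE, Fos was found in 16 of 42 interferon-high cells (38.1%, interval 23.6 to 54.4%) and in 23.6% of the other cells. Hspa1a was at 38.1% against 31.7%, Dusp1 at 28.6% against 19.3% and Jun at 71.4% against 59.5%. The 3 libraries behind these pooled shares differed. In ENZ-NONE replicate 4 Fos was found in 5 of 12 interferon-high cells (interval 15.2 to 72.3%) against 12.8% of others, and Dusp1 in 6 of 12 (interval 21.1 to 78.9%) against 10.8%. In replicate 5 Fos was at 30.8% against 14.9% and Hspa1a at 46.2% (interval 19.2 to 74.9%) against 19.0%. In replicate 6 Fos was at 41.2% against 38.9%, and Dusp1 (17.6% against 30.1%), Hspa1a (23.5% against 35.4%) and Jun (52.9% against 69.3%) were lower in interferon-high cells. Fos was thus higher in interferon-high cells in 3 of 3 libraries, and Dusp1, Hspa1a and Jun in 2 of 3, with 12, 13 and 17 interferon-high cells in the libraries and no test made over cells. Cells with at least 4 of the 16 dissociation-response genes made up 52.4% (interval 36.4 to 68.0%) of interferon-high and 46.9% of other cells in ENZ-NONE, being 66.7% against 37.5%, 53.8% against 36.6% and 41.2% against 61.9% in its libraries. In ENZ-INHIB they were 0 of 40 (interval 0 to 8.81%) against 0.960%, in DNC-NONE 6.00% against 4.80% and in DNC-INHIB 1.64% against 1.51%. Interferon-high cells were found both in the preparation where the dissociation response was common and in those where it was rare.

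To see which other genes went with the members, interferon-high and other cells were compared within each of the 12 libraries, with the 10 members left out because they define the cells. Of 5340 genes tested, 151 (2.83%) were higher and 80 (1.5%) lower in interferon-high cells by edgeR with library as a block, and 182 in all were called by DESeq2. With TMM factors in place of library totals the balance turned to 92 higher and 632 lower. The median over all genes was -0.13, and the 12 largest increases were Ifi204 (5.86), Ccl12 (5.0), Ms4a4c (4.95), Ifi209 (4.95), Gbp2 (4.83), Plac8 (4.57), Fgl2 (4.55), Sp100 (4.40), Ifi27l2a (4.37), Phf11b (4.28), Ccl5 (4.05) and Wfdc17 (3.74), as log2 fold changes. Of these 12, Ifi204, Ms4a4c, Ifi209, Gbp2, Plac8, Fgl2 and Ccl5 were at 7.46 to 22.6 CPM in other cells and passed the filter on low counts through the interferon-high cells, so that they had to differ once tested. With a filter computed on the other cells alone, added after the data were seen, these 7 were not tested, and 156 genes were called higher and 79 lower of 7587, including 132 of the 151 and 73 of the 80. Ccl12, a chemokine that attracts monocytes, was at 5363 CPM in interferon-high and 219 CPM in other cells. In the other cells summed, 19 of the 151 genes were under the 22.9 CPM that the filter on both classes needed. Of the 151 genes 39 were higher in all 12 libraries, among them Ccl12, Sp100, Ifi27l2a and Phf11b. Ifi204, Ifi209, Gbp2 and Fgl2 were also among the 39, but belong to the 7 that had to differ once tested.

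Plac8, a monocyte marker, was higher in 8 of 12 libraries, and Ccl5 likewise (adjusted p = 0.0471 by edgeR). Without macrophage-marker cells, 88 of the 151 higher and 27 of the 80 lower genes were still called, Plac8 could not be tested and Ccl5 was not called (adjusted p = 0.223 by edgeR). That comparison used 10 libraries, since 2 had fewer than 10 interferon-high cells left.

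Within the pathway lists, 22 of 23 further antiviral effectors tested were higher, with a median of 3.02, and with the filter on the other cells alone 20 of 22 were, with a median of 2.55. The list holds 47 genes, of which 45 were among the genes that the libraries list, and the rest of these 45 did not pass the filters. Besides those named above they included Phf11d (3.53) and Xaf1 (3.46). The 6 interferon-gamma GTPases and chemokines tested were all higher (Ccl12, Gbp2 and Ccl5 as above, Irgm1 2.64, Igtp 2.34 and Gbp7 1.07). Of these, Gbp2 and Ccl5 had to differ once tested. With the filter on the other cells alone, Gbp2 and Ccl5 were not tested. The 5 genes tested then, which are not a subset of the 6, were all called higher, with a median of 2.34. Of 8 transcription factors 4 were higher, among them Stat2 (2.97), Irf1 (1.57) and Irf9 (1.15), and 2 of 8 were without macrophage-marker cells.

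Antigen presentation genes were higher in 8 of 9 cases, with Tap1 (2.18), a peptide transporter, H2-K1 (1.74), H2-T23 (1.73), H2-D1 (1.35), Tap2 (0.97), Psmb8 (0.90), B2m (0.75) and Tapbp (0.60). Of 7 nucleic acid sensors 1 was called, Ddx58 (1.83), which senses viral RNA, and DESeq2 called 0, with 2 unadjusted p values under 0.05 by edgeR. Without macrophage-marker cells 3 of 8 were called, Ddx58, Ifih1 (3.05) and Tlr3 (1.37), and with the filter on the other cells alone 3 of 9 were. Of 5 feedback inhibitors Trim30a was called (2.07). No receptor or kinase of 7 was called by edgeR or DESeq2, with 1 unadjusted p under 0.05, for Ifngr1 (-0.45, adjusted p = 0.0101), which missed the fold limit. The list medians stand beside -0.13 over all genes.

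**Figure D5:**
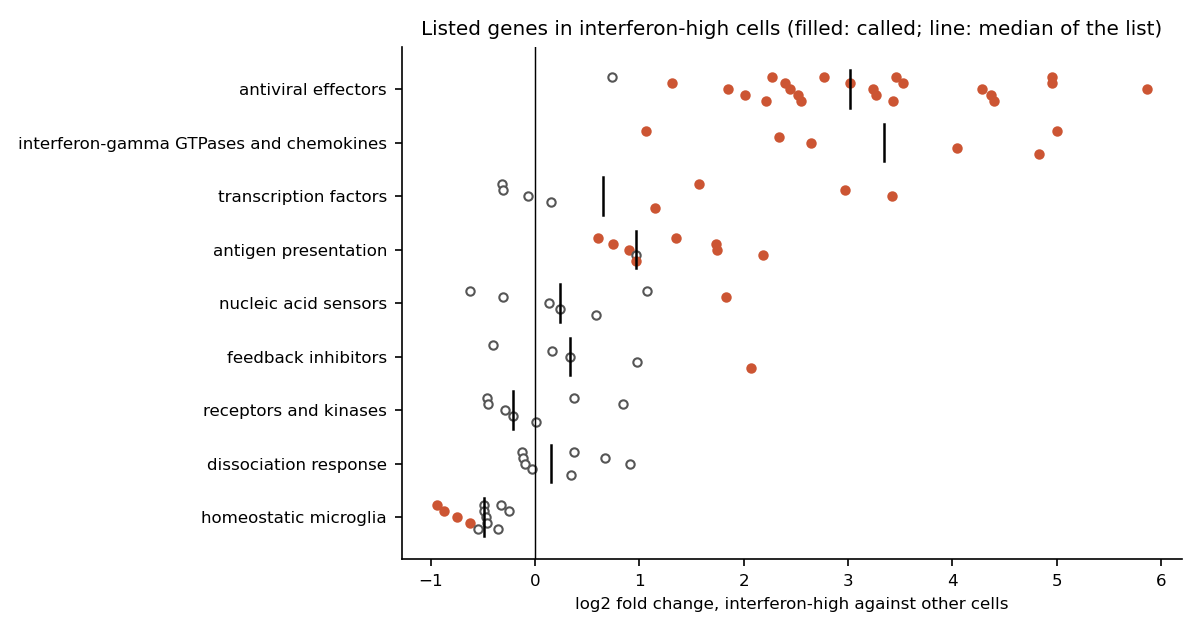
Log2 fold change (horizontal axis) of the listed genes that passed the filter on low counts in interferon-high against other cells, one row per list, with filled points for called genes, open points for others and a black line at the median of the list. Antiviral effectors (median 3.02) and interferon-gamma GTPases and chemokines (3.35) lie far to the right, the dissociation response (0.16) lies around 0 and homeostatic microglia genes lie to the left (-0.49). Some of the antiviral effectors and of the interferon-gamma GTPases and chemokines passed the filter through the interferon-high cells. With the filter on the other cells alone the medians of these lists were 2.55 and 2.34. Only 8 of the 16 dissociation-response genes passed the filter and are shown.

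Homeostatic microglia genes were lower in interferon-high cells in 4 of 12 cases, Fcrls (-0.94), P2ry12 (-0.87), Gpr34 (-0.75) and Tmem119 (-0.62). P2ry12 was found in 62% of interferon-high cells against 96.3% of others in DNC-NONE, 90.2% against 97.8% in DNC-INHIB, 78.6% against 97.2% in ENZ-NONE and 70% against 98.1% in ENZ-INHIB. The lowest share was in DNC-NONE and the highest in DNC-INHIB, which held the most and the fewest macrophage-marker cells among their interferon-high cells (32% and 3.28%). The digested groups ran the other way, with 21.4% such cells in ENZ-NONE and 12.5% in ENZ-INHIB, where the P2ry12 share was lower. The part of macrophage-marker cells in these shares was not tested. Without macrophage-marker cells P2ry12 (-0.69) and Fcrls (-0.97) were still called. Of the 16 dissociation-response genes only 8 were tested. By edgeR or DESeq2 0 of these 8 were called, with 1 unadjusted p under 0.05 and a median of 0.16, and Fos could not be tested at 368 CPM against 213 CPM. With no filter on low counts all 16 were tested by edgeR, and 1 was called higher and 0 lower. There 4 unadjusted p values were under 0.05 and the median was 0.26, so the result for 8 genes does not cover the list.

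The 6 lowest fitted fold changes belonged to genes with 0 UMIs in the interferon-high cells, for which only a bound can be given and no order by size, taking 3 counts over all these cells as the floor (15.5 CPM). By this bound Tmx4 was at least 3.81-fold lower, Med13l at least 2.31-fold, Arl2 at least 2.23-fold, Ttc28 at least 2.13-fold, Copz2 at least 1.91-fold and Riok2 at least 1.80-fold lower. The bound treats each gene alone and does not allow for their choice as the lowest of 5340 genes, so the true differences may be smaller. Among genes with UMIs in both classes Map1lc3a, chosen after its values were seen, was at 25.9 CPM (5 UMIs) in interferon-high and 108 CPM in other cells (log2 fold change -2.04, adjusted p = 0.00784 by edgeR).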

How the data were processed

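Cells were captured with the 10x Genomics 3′ v2 chemistry, and the deposited values are raw UMI counts per gene and cell that the authors made with bcl2fastq and Cell Ranger 3.0.0 on GRCm38 (mm10). Seurat is also named in the submitters' processing notes. Whether antisense reads were counted is not given in the sources used here. Cells with at least 1000 UMIs, at least 500 genes and at most 10% mitochondrial UMIs were kept. A doublet rule removed 3 of 18830 cells (0.0159%), too few to work as a caller, so doublets remain. Columns of per-sample values left unused numbered 0.

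Counts were summed per library and fitted over all 12 libraries with the quasi-likelihood test of edgeR 4.0.16 (TMM factors, low-count filter, 4 group means). A call needed a Benjamini-Hochberg adjusted p under 0.05 and a log2 fold change beyond 0.58 in size, and p-values measure the spread between mice. Interferon-high and other cells were compared on thinned sums in the libraries with at least 10 such cells and with library as a block. There the totals of the thinned cells replaced the TMM factors that had been planned, because TMM returned shifted values on simulated data.

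The members and all gene lists were chosen with earlier results of these data known. All members were named. From each comparison between preparations, the called genes of the wider lists were named, up to 8 by size of fold change, or the 4 with most UMIs where none was called. For interferon-high cells the 12 highest, the 6 lowest and up to 8 called genes per list were named. Some genes that this rule names are not reported here. Shares of cells have exact Clopper-Pearson 95% intervals, and differences in shares were tested by exact permutation of libraries. Replicate numbers were not used as pairs in the main fits, because each library held the cells of 1 mouse. The same-numbered libraries of replicates 2 and 5 also lay in different batches. Deviations of same-numbered libraries from their group means correlated at -0.0812 to 0.155, which alone cannot exclude a pairing. Python 3.11.15 with numpy 2.4.6, scipy 1.17.1, pandas 2.3.3 and matplotlib 3.10.9, and R 4.3.3 with DESeq2 1.42.0 and limma 3.58.1, were used. Alternatives covered the tool, the filters, the thinning, the batch, the replicate block, the macrophage-marker cells and each library left out.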

Additional observations from a re-analysis of the deposited data

How the results depend on the processing

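Of 400 alternative fits of single members, 359 kept the direction and the side of the threshold, 8 lost the call and 33 reversed. Only Ifit2 for ENZ minus DNC had a call to lose, and it kept the call in 12 of its 20 alternatives. Of 135 alternative counts of members called, 126 were unchanged, most of them counts of 0 that stayed 0. The call of Ifit2 for ENZ minus DNC (1 member) became 0 with DESeq2 and with sums of thinned cells in edgeR (adjusted p rounds to 0.0528 in both) and without macrophage-marker or macrophage- and neutrophil-marker cells, and was 0 to 1 with each library left out. The log2 fold change of Ifit2 stayed between -1.32 and -0.97 with adjusted p of 0.00281 to 0.0900 by edgeR and DESeq2. For ENZ-INHIB against DNC-INHIB, 1 member was called in place of 0 when no filter on low counts was used. The cause of each change was not tested.

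With the replicate block the members called were 1 for ENZ minus DNC (Ifit2, -1.17, adjusted p = 0.0115 by edgeR) and 0 for INHIB minus NONE. Over all genes the block gave 121 calls in place of 86 and 18 in place of 7 (DESeq2 72 and 26). The Ifit3 share paired by number gave -0.349 points for ENZ minus DNC (exact permutation by sign flips p = 0.125, smallest possible 0.0312).

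For INHIB minus NONE the direction reversed for Ifit1 without macrophage-marker cells (0.0352) and without neutrophil-marker cells too (0.0290), and for Usp18 in the same way (0.0267 and 0.0229). Ifit3 reversed with batch (0.00837), with all deposited barcodes (0.0749), without marker cells of the first kind (0.122) or both (0.125), and with the replicate block (0.0125). Ifit3b reversed with thinned sums (-0.0291) and Isg15 with DESeq2 (-0.00443). With each library left out the ranges were -0.525 to 0.183 for Ifit1, -0.196 to 0.121 for Ifit3, -0.119 to 0.349 for Ifit3b, -0.161 to 0.106 for Isg15 and -0.291 to 0.0644 for Usp18. For ENZ minus DNC, Irf7 reversed without marker cells (0.0354 and 0.0320) and ran from -0.234 to 0.0697. All these are log2 fold changes of uncalled genes.

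The Ifit3 share difference for ENZ minus DNC was -0.189 points without thinning, -0.207 thinned to 500 UMIs, -0.245 and -0.234 without the marker cells, -0.203 expected over every thinning and -0.415 to -0.267 with each library left out (exact permutation p = 0.0216 to 0.0909). For INHIB minus NONE it was 0.0887, 0.0372, 0.113 and 0.125 in the order of the first 4 settings and -0.158 to 0.0691 with each library left out.

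The mean interferon-high share, for Dounce without and with inhibitors and then digestion without and with them, was 2.57%, 2.03%, 1.94% and 1.85% with at least 2 members, 0.708%, 0.652%, 0.427% and 0.427% with at least 4, and 0.531%, 0.557%, 0.300% and 0.385% with 3 of 7 members. It was 1.74%, 1.55%, 1.24% and 1.22% without thinning and 0.741%, 0.444%, 0.412% and 0.378% thinned to 500 UMIs. In DNC-NONE it was 0.867% and 0.844% without the marker cells. Ranges with each library left out were 1.21 to 1.29%, 0.831 to 1.15%, 0.868 to 1.07% and 0.771 to 1.02%.

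In place of 231 genes, interferon-high cells differed in 426 with at least 2 members, 113 with at least 4, 131 without macrophage-marker cells, 235 with the filter on the other cells alone, 407 with no filter, 175 to 239 with each library left out, and 724 with TMM factors (92 higher and 632 lower, against 151 and 80). The TMM factors, the filter on the other cells alone, the neutrophil-marker limit, the marker cells in interferon-high shares and the expected thinning were settings chosen after seeing the data. With 8 to 26 Ifit3-positive cells per library, smaller differences in share were not detectable at this depth.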
